A study of Homo sapiens with 8 samples.

Results

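Among the 11603 autosomal 1000-base tiles dense in CpG that could be measured in these cells, 1123 were highly methylated at the first 3 passages, and they are described here through passage 28. The members were chosen by measured values: at least 35 CpG positions listed in any file, at least 3 CpGs with 5 or more reads in every library, and a level of 80% or more in all 3 libraries of passages 6, 7 and 8. The level of a tile is the methylated reads divided by all reads of its measured CpGs. In all, 105631 tiles of any density met the rule on reads, and 9866 of the dense tiles lay at 20% or less in each of passages 6, 7 and 8. The cells are HUES64, a human embryonic stem cell line in which, per the labels, DNMT3A and DNMT3B were knocked out. Reduced representation bisulfite sequencing (RRBS), which after bisulfite treatment reads mostly CpG-rich fragments, was done at passages 6, 7, 8, 11, 13, 17, 27 and 28, with 1 library at each. All 8 groups share the knockouts, and unedited cells were not analysed here. Whether the passages come from 1 culture or clone is not in the labels, so the p-values measure only how the libraries scatter around a trend, and that scatter may be technical.

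DNMT3A and DNMT3B place methyl groups on unmethylated CpGs, while DNMT1 copies methylation onto the new strand when DNA is replicated. Stretches dense in CpG, called CpG islands, are mostly unmethylated and often hold promoters. The known exceptions that are methylated in most tissues include promoters of genes used in germ cells, CpG-rich repeated sequences and some regions next to chromosome ends.

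The following sequences show what such dense tiles look like where a promoter could be found in them. They are the 250 bases upstream of a RefSeq gene start (RefSeq sequences of the GRCh38.p14 table), found in the hg19 files only by the distances between CpGs. Capitals mark the CpGs with 5 or more reads in every library. DMGDH encodes a mitochondrial enzyme of choline breakdown, and only the 92 bases between its start and that of the head-to-head gene BHMT2 are shown (chr5:78365498-78365589, minus strand). MOV10L1 (chr22:50528185-50528434, plus strand) encodes an RNA helicase that germ cells need to make piRNAs, the small RNAs that guide PIWI proteins to transposons. PIWIL1 (chr12:130822182-130822431, plus strand) encodes a PIWI protein. These 3 promoters lie in tiles that lost methylation. TDRD9 (chr14:104394543-104394792, plus strand), a piRNA pathway helicase with a Tudor domain, and TUSC1 (chr9:25678443-25678692, minus strand) lie in tiles that stayed at 80% or more.
DMGDH: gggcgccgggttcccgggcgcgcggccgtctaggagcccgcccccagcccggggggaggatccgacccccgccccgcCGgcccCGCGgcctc
MOV10L1: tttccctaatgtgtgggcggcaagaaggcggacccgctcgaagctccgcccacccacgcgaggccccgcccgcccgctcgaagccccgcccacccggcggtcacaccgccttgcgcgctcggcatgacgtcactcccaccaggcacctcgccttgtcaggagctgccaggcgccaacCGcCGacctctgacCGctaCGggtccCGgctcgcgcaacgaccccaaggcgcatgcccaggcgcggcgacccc
PIWIL1: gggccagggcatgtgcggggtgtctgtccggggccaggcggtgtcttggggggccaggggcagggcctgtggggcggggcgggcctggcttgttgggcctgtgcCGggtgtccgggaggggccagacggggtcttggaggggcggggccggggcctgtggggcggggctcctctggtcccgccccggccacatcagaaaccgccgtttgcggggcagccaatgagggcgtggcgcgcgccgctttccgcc
TDRD9: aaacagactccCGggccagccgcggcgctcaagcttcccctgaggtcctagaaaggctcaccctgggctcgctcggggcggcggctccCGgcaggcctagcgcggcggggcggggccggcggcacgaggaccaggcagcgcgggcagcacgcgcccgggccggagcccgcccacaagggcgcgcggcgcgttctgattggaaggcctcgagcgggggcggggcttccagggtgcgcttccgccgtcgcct
TUSC1: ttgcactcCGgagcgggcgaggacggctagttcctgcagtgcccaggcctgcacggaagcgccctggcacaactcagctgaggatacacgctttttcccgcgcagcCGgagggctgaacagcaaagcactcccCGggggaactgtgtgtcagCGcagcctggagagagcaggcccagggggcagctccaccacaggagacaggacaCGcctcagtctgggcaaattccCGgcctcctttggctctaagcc

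The 3 measured CpGs of the DMGDH stretch were at 92.0%, 80%, 96.7%, 97.3%, 96.3% and 95.2% at passages 6, 7, 8, 11, 13 and 17. At passage 27 none of their 27 reads was methylated, which allows a level of up to 11.1%, and at passage 28 the level was 13.3% (95% Wilson interval 5.31 to 29.7%). The 5 measured CpGs upstream of MOV10L1 went from 96.5% at passage 6 (91.4 to 98.6%) and 84.2% at passage 17 to 53.7% at passage 27 and 23.5% at passage 28 (17.2 to 31.3%). The 6 measured CpGs upstream of TUSC1 went from 93.4% at passage 6 (88.6 to 96.3%) to 82.0% at passage 28 (73.3 to 88.3%), and its tile was not called as changed by the test described further on. TDRD9 had 2 measured CpGs, at 100% at passage 6 and 93.8% at passage 28 (79.9 to 98.3%), and PIWIL1 had 1, with 5 to 10 reads in any library, so its level rests on the whole tile below. Intervals cover the counting of reads only, since RRBS reads without molecular identifiers are not independent molecules.

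Coverage set which tiles could be seen. Median coverage per listed CpG was 13 reads at passage 6 and 6 to 8 elsewhere. A member had a median of 44 listed CpG positions, of which a median of 7 were measured (range 3 to 97), and a median of 63 to 133 reads per library. For 284 members the level rests on 3 or 4 CpGs. At the limit of the rule, the members just inside it were chr2:32672001-32673000, chr10:134605001-134606000 and chr3:122499001-122500000, each at 80% in their lowest early library. Just outside lay chr5:179958001-179959000 (79.9% at passage 6), chr16:87723001-87724000 (79.8% at passage 6) and chr6:170402001-170403000 (79.7% at passage 8). At passage 28 these 3 stood at 82.3%, 2.62% and 18.1%, on 6, 21 and 25 measured CpGs. The members just inside stood at 90.5%, 71.9% and 96.3% there, on 4, 3 and 4 measured CpGs.

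Most members kept their methylation, and the late levels of the others ranged down to nearly none. The mean over the 1123 members was 92.5%, 92.7% and 92.5% at passages 6, 7 and 8 (92.5% ± 0.106, SD of the 3 libraries), the values that chose them. It was then 91.9%, 91.8% and 91.2% at passages 11, 13 and 17, and 86.9% and 86.1% at passages 27 and 28. Over the 5 libraries the rule did not use, the mean fell by 0.351 ± 0.0398 percentage points per passage (SE of the slope, two-sided exact permutation test over 120 orders, p = 0.00833, the smallest these orders allow). The slope was -0.549 at a minimum of 10 reads per CpG (241 members) and -0.206 with a start at 90% (646 members). Each of the 2 last libraries lay below all 6 earlier ones. With 4 libraries there are only 24 orders, and the exact p was 0.0833 without passage 11 or 13 and 0.125 without passage 17.

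The median of the mean level of passages 27 and 28 was 91.3% and the middle 50% of members lay between 85.2 and 94.1%. Of the 1123 members, 917 (81.7%, Wilson interval over tiles 79.3 to 83.8%) were at 80% or more in both late libraries. In 42 members both late libraries were under 50%, and in 11 both were under 20%. By mean late level, 15 members lay under 20%, 20 between 20 and 40%, 26 between 40 and 60%, 108 between 60 and 80%, 315 between 80 and 90%, and 639 at 90% or more. The median absolute difference between passages 27 and 28 was 3.18 points, with 625 members lower and 490 higher at passage 28. Between passages 6 and 7 it was 2.42 points, among values the rule held at 80% or more, so the differences cannot be compared.

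**Figure D1:**
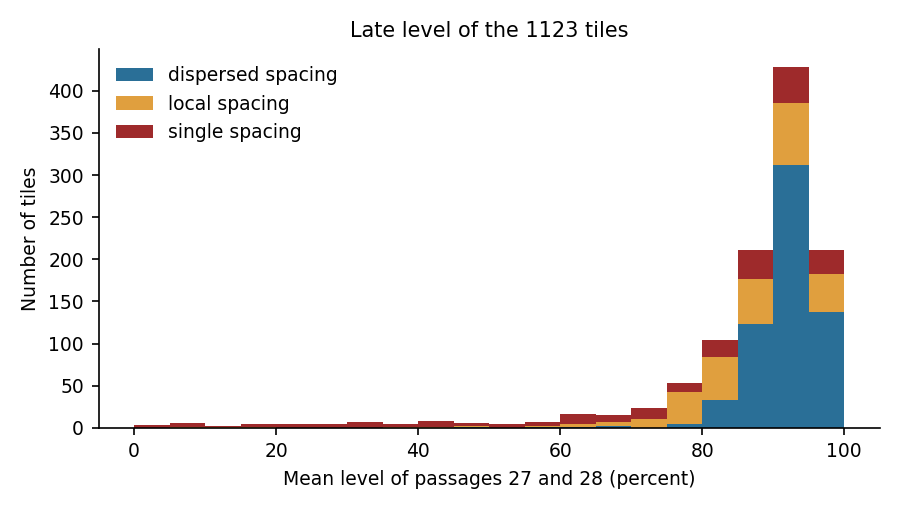
Histogram of the mean level of passages 27 and 28 (percent, bins of 5 points) over the 1123 tiles, with the number of tiles on the vertical axis and colours for the 3 kinds of CpG spacing. Most tiles sit at 80% or more, and the thin tail below 60% is nearly all single or local spacing.

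A test was made for each tile of the whole table. Methylated and unmethylated reads of passages 11 to 28 were fitted against passage in a quasi-binomial model, and a tile was called where the Benjamini-Hochberg adjusted p was under 0.05 and the fitted difference between passages 11 and 28 was 10 points or more. Over all 72839 tiles tested, 23.9% were called as losing methylation and 0.423% as gaining it. Of the members, 987 had at least 10 methylated and 10 unmethylated reads and could be tested, and 124 of these (12.6%) were called as losing methylation and 2 as gaining it. The 136 members not tested had too few reads of a state, so the share is of tested members and not of all. Tiles with the same start and fewer CpG positions were called as losing in 399 of 2008 (20 to 34 positions) and in 2181 of 14464 (3 to 9 positions). In the 124 members called, the median fitted change was -32.0 points.

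Members of different CpG arrangement kept their methylation to different extents. The distances between 9 successive CpGs in a tile (8 distances, read from either strand) were compared across the genome, since copies of a sequence carry their CpGs at the same distances. A tile has dispersed spacing where such a pattern is found on at least 5 autosomes, local spacing where a pattern occurs at 2 or more places but on fewer autosomes, and single spacing where each of its patterns occurs once. This division was made after the levels had been seen, so its differences are given without a test. Of the members, 616 (54.9%) had dispersed, 288 (25.6%) local and 219 (19.5%) single spacing. Of the 10480 other dense tiles, 1.49% had dispersed, 9.95% local and 88.6% single spacing. Read the other way, 616 of the 772 dense tiles with dispersed spacing (79.8%) were members, against 219 of 9500 with single spacing (2.31%).

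Members with dispersed spacing moved least of the 3 kinds. Their mean was 93.5%, 93.9%, 93.7%, 93.5%, 93.4%, 93.1%, 91.8% and 91.7% at the 8 passages in order, a slope of -0.111 ± 0.00566 points per passage over passages 11 to 28. Of these 616 members, 593 (96.3%) stayed at 80% or more in both late libraries and none was under 50% in both. Only 7 of the 523 tested were called as losing methylation, and 2 as gaining it. For the 288 members of local spacing the mean was 90.8% at passage 6, 89.7% at passage 17 and 86.1% and 85.2% in the late libraries. Their slope was -0.300 ± 0.0342, with 30 of 261 tested called as losing.

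Members with single spacing carried most of the loss. Their mean was 91.7%, 91.5%, 91.3%, 89.4%, 89.6%, 88.1%, 74.3% and 71.6% at the 8 passages in order, and the slope was -1.10 ± 0.146 points per passage. Single minus dispersed spacing gave a slope of -0.984 ± 0.141. Of these 219 members, 113 (51.6%) stayed at 80% or more, and 87 of the 203 tested (42.9%) were called as losing methylation and none as gaining it, while 108 had an unadjusted p under 0.05. Their spread widened as well: the middle 50% of tiles lay between 88.3 and 95.3% at passage 6 and between 54.8 and 92.0% at passage 28. Of the 42 members under 50% in both late libraries, 36 had single, 6 local and none dispersed spacing.

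**Figure D2:**
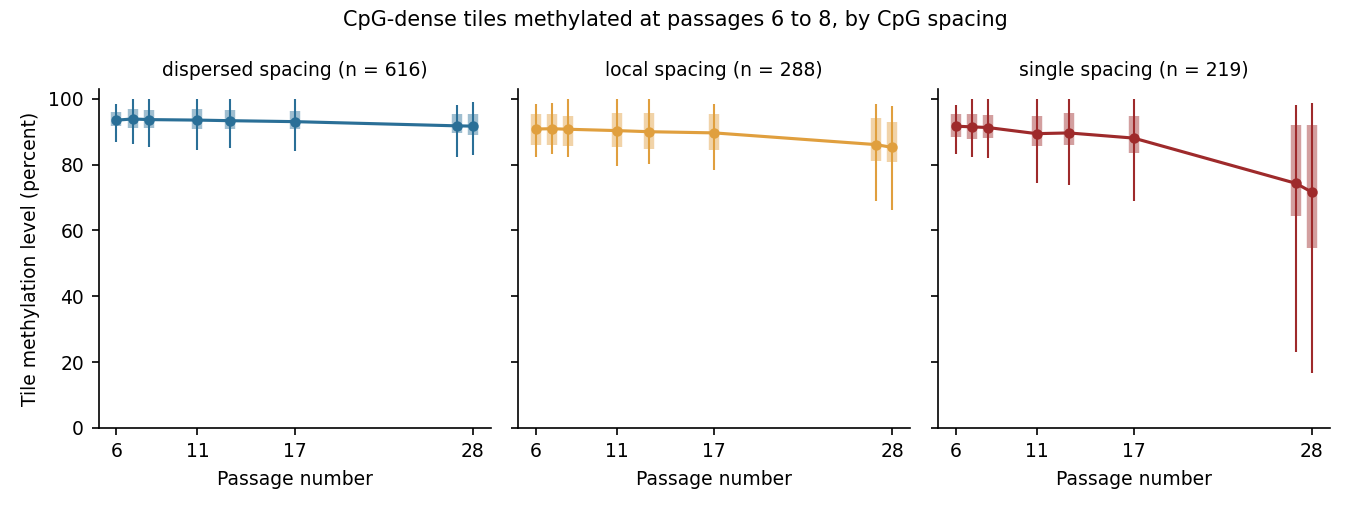
Tile methylation level (percent) against passage number for members of dispersed, local and single CpG spacing, where points and the line are the mean over tiles, thick bars the middle 50% and thin bars the 5th to 95th percentile of tiles. The means of dispersed tiles stay between 91.7 and 93.9%, while those of single tiles drop from 88.1% at passage 17 to 74.3% at passage 27 as their bars lengthen.

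Depth and start level also differed between these kinds of tile. A median of 5 CpGs was measured in tiles of dispersed spacing, 15 in local and 11 in single ones, and the early mean was 93.7%, 90.8% and 91.5%. The slope of single minus dispersed spacing was -1.05 where at least 5 CpGs per tile were required, -1.17 at 10 reads per CpG and -0.531 among members at 90% or more in all 3 early libraries. Reads from near-identical copies can be placed on the wrong copy, and the part this has in the levels of repeated spacing was not tested.

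The pattern found in most members had distances of 4, 8, 18, 10, 4, 5, 64 and 4 bases, occurred at 114 places on 22 autosomes and was in 75 members. Their mean went from 94.2% early to 92.5% late, all 75 stayed at 80% or more, and the lowest stood at 82.9%. The second pattern (8, 4, 19, 104, 8, 12, 8 and 8 bases, 153 places on 21 autosomes) was in 47 members, all kept, at 94.0% early and 92.5% late. The third (4, 8, 5, 18, 10, 4, 33 and 17 bases, 156 places on 21 autosomes) was in 46 members, of which 45 were kept. The high start of these members was fixed by the rule, and many places that hold a pattern were not measured. Over all 91 measured tiles with the first pattern, 88 were at 80% or more early. The second pattern was also in less dense tiles, and over all 120 measured tiles that hold it the mean was 93.6% early and 92.0% late. None of the patterns was matched to a named repeat here, because no hg19 repeat annotation was used.

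The slope of members against less dense tiles differed between all spacings pooled and single spacing alone. Over all tiles with the same start, members fell more slowly than tiles with 20 to 34 positions (slopes -0.351 and -0.480, difference 0.129 ± 0.0233, exact permutation test with Benjamini-Hochberg adjustment over 5 differences, adjusted p = 0.0417). They also fell more slowly than tiles with 3 to 9 positions (-0.443, difference 0.0920 ± 0.0155, adjusted p = 0.0417). Among tiles of single spacing alone, an alternative chosen after seeing the data, the difference from tiles with 20 to 34 positions turned to -0.330 ± 0.0633 (adjusted p = 0.133, exact permutation test). There the slopes were -1.10 in the 219 members and -0.765 in the 1087 less dense tiles. In local spacing the slopes were -0.300 and -0.283, and in dispersed spacing -0.111 and -0.148, in the same order. Dispersed spacing was held by 54.9% of members and by 30.1% of the tiles with 20 to 34 positions. With any 1 of the 5 later libraries left out, the adjusted p of both differences was between 0.104 and 0.278 (exact permutation test over 24 orders), and without passage 8 that of the second was 0.0521. At 10 reads per CpG the difference from tiles with 3 to 9 positions was -0.0629 (adjusted p = 0.108, exact permutation test). Within the members, the slopes of tiles with 50 or more positions and with 35 to 49 differed by 0.0375 ± 0.0133 (adjusted p = 0.125), which did not pass the test. This difference was 0.514 at 10 reads per CpG, and it turned to -0.0308 with shifted tile borders and -0.00989 with a start at 90%, none past the threshold (exact permutation test).

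**Figure D3:**
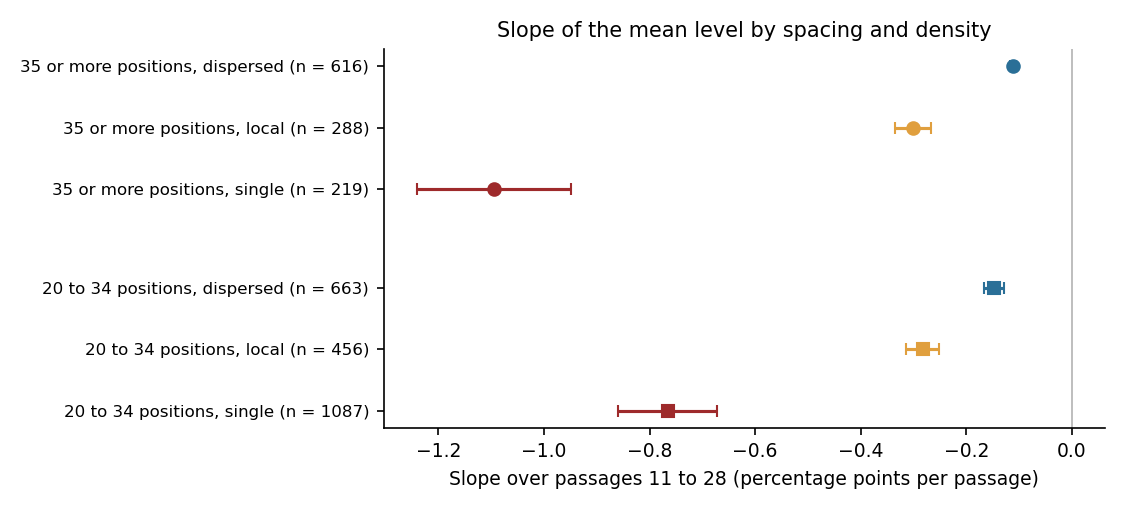
Slope of the mean tile level over passages 11 to 28 (percentage points per passage, horizontal axis) for each kind of spacing in members (circles, 35 or more positions) and in tiles with 20 to 34 positions (squares), with bars of 1 SE of the slope over 5 libraries. Single spacing has the steepest slope in both, -1.10 and -0.765, and dispersed spacing the flattest, -0.111 and -0.148.

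The loss came late. The mean over members moved by -0.116 points per passage from passage 11 to passage 17 and by -0.429 from there to passage 27. For members of single spacing these rates were -0.225 and -1.37. The 42 members under 50% in both late libraries had a mean of 81.0% at passage 11, 82.6% at passage 13 and 77.9% at passage 17, then 27.7% at passage 27 and 22.9% at passage 28. No member was under 50% at passage 17, and 39 of these 42 were still at 60% or more there. No library lies between passages 17 and 27, so the course within that stretch was not seen. The late levels that picked these 42 members also set the late levels of their 605 measured CpGs, which are given as a description. The share of these CpGs under 20% was 0.331% at passage 6, 3.64% at passage 17, then 48.4% and 56.4% in the late libraries. In the 917 kept members that share was 0.395% of 9610 CpGs at passage 6 and 0.385% at passage 28.

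The 8 members lowest at passage 27, with passage 28 as a library not used to pick them, show how complete the loss could be. The lowest, chr14:99641001-99642000, had 90.8%, 89.8%, 93.3%, 89.9%, 89.4% and 79.9% at passages 6 to 17 in order, then 5.19% at passage 27 (3.31 to 8.05%) and 0.580% at passage 28 (0.159 to 2.09%), over 19 CpGs and 345 reads. Its neighbour chr14:99642001-99643000 fell with it, from 83.9% at passage 6 and 58.2% at passage 17 to 6.96% at passage 27 and 2.78% at passage 28. At chr16:28331001-28332000 the levels were 86.8%, 94.0%, 81.7%, 85.8%, 94.0%, 77.8% and 5.73%, and none of 271 reads was methylated at passage 28, which allows up to 1.11%. The low values at passage 27 and the high ones at passages 6 to 8 follow from how these tiles were chosen. Passage 28 lay far below passages 11, 13 and 17, which served in neither choice.

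The tile chr17:55123001-55124000 stood between 77.7 and 82.5% in the first 6 libraries and at 6.07% and 4.29% in the last 2. Levels at chr19:58868001-58869000 were 88.7%, 88.3%, 90.2%, 69.2%, 75.9%, 87.3%, 7.43% and 3.19%, so the passage 11 dip was not kept at passage 17. At chr17:26634001-26635000 the level was 89.1% at passage 17, then 7.51% and 3.62%. These 6 tiles had single spacing. The other two, chr19:813001-814000 (69.5% at passage 17, then 10.5% and 4.80%) and chr10:678001-679000 (94.7%, then 10.9% and 20%, on 4 CpGs), had local spacing. The fitted changes of these 8 ran from -92.6 to -77.1 points, which describes the choice, since the fit includes passage 27. The largest falls from passage 17 to passage 27 were those of chr10:678001-679000, chr17:26634001-26635000 and chr19:58868001-58869000.

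At the other end, several members stood at 100% at passage 27, and the 8 with most reads there are given. Of these, chr3:75445001-75446000 had 92.2%, 90.5%, 95.6%, 88.8%, 87.3%, 87.2%, 100% and 91.4% at the 8 passages, with single spacing. Its passage 28 interval was 85.9 to 94.9%. The others (chr18:12068001-12069000, chr9:34137001-34138000, chr2:39855001-39856000, chr13:19183001-19184000, chr17:25539001-25540000, chr9:102830001-102831000 and chr2:170625001-170626000) lay between 90 and 100% at passage 28. Of the 8 tiles, 4 had dispersed, 3 single and 1 local spacing, and 5 had too few unmethylated reads for the test.

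**Figure D4:**
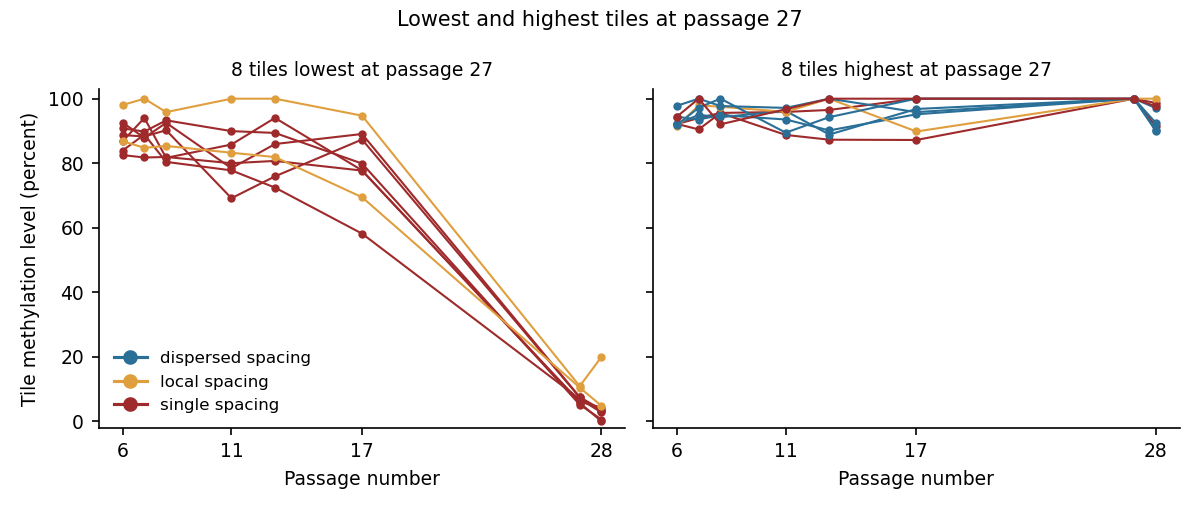
Methylation level (percent) against passage number for the 8 members lowest (left) and the 8 highest (right) at passage 27, each line a tile coloured by its CpG spacing. The lowest tiles stay at 58.2% or more through passage 17 and lie at 20% or less at passage 28, and the highest stay at 87.2% or more throughout.

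Passages 27 and 28 disagreed most at 3 members. At chr18:74153001-74154000 the level was 84.9% (75.8 to 90.9%) and then 48.9% (38.7 to 59.1%), and at chr19:45567001-45568000, on 22 CpGs, it was 52.0% (47.2 to 56.8%) and then 23.4% (19.6 to 27.6%). Both were called as losing methylation (fitted changes -34.2 and -46.6 points). At chr10:94434001-94435000, on 4 CpGs, it was 68.0% (48.4 to 82.8%) and then 100% (89.3 to 100%), with adjusted p = 0.76 in the quasi-binomial fit.

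A larger share of members than of other dense tiles lay near chromosome ends, and the members there fell faster. Within 5000000 bases of the first or last listed CpG of a chromosome lay 344 members (30.6%, against 24.6% of other dense tiles), and within 1000000 bases 186 (16.6%, against 7.06%). Both counts include 27 members of a repeated array on chromosome 4 and 21 of one on chromosome 10, described further on. Near the ends the mean went from 91.2% at passage 6 to 89.2% at passage 17, then to 81.4% and 79.9% in the late libraries. Elsewhere it went from 93.1% to 92.1%, 89.4% and 88.9%. The slopes were -0.619 and -0.233, a difference of -0.386 ± 0.0589 (exact permutation test over 120 orders, adjusted p = 0.0417). With ends taken as 1000000 bases, the difference was -0.220. Without any 1 of the 5 later libraries the difference lay between -0.400 and -0.355 and its adjusted p between 0.125 and 0.278 (exact permutation test). The places also differ in spacing. Members of single spacing had a slope of -1.32 near the ends (105 tiles) and -0.889 elsewhere (114 tiles), and this difference had an adjusted p of 0.133 (exact permutation test). Members of dispersed spacing had -0.120 near the ends (46 tiles) and -0.110 elsewhere (570 tiles). Local spacing, the most common kind near the ends, had -0.358 there (193 tiles, those of the arrays included) and -0.184 elsewhere (95 tiles). At a minimum of 10 reads per CpG, which left 241 members, the difference turned to 0.0811 (adjusted p = 0.0556, exact permutation test).

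Of the 3 members with most CpG positions, the first 2 lie at chromosome ends. The highest count, 117 positions, was at chr5:12001-13000, among the first CpGs listed for that chromosome, with 84.6% at passage 6 and 90.7% at passage 28. With 108 positions, chr19:59118001-59119000 stood at 86.9% and 90.2%, and both have dispersed spacing with patterns on 9 autosomes. The third, chr19:56615001-56616000 (106 positions, local spacing), went from 89.6% to 78.9%, which was not called (adjusted p = 0.096 in the quasi-binomial fit).

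By chromosome, the mean change from passages 6 to 8 to passages 27 and 28 ran from -14.8 points on chromosome 19 to -2.51 on chromosome 15. Chromosome 19 held 71 members, of which 33 had single spacing (46.5%), and chromosome 15 held 37, of which 2 did (5.41%). On chromosome 16 the change was -11.9 and on chromosome 22 it was -11.5, with 12 of 33 and 7 of 28 members of single spacing. Other chromosomes did not follow this order. Chromosome 8, with 18 of 58 members of single spacing, changed by -5.01, and chromosome 7, with 19 of 79, by -3.01. Chromosome 18, with 4 of 21, changed by -9.51. The part of spacing in the differences between chromosomes was not tested.

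Few members were clustered: 222 had another member within 10000 bases, in 78 runs of which 68 were pairs, and 901 stood alone. With all spacings pooled, slopes in runs and alone were -0.356 and -0.350 and did not differ beyond the scatter of the libraries (difference -0.00503 ± 0.0256, exact permutation test, adjusted p = 0.833). The pooled slopes compare different mixes of spacing. For single spacing they were -0.847 in runs (49 tiles) and -1.17 alone (170 tiles), and for local spacing -0.234 (126 tiles) and -0.352 (162 tiles). Dispersed spacing had the other order, -0.170 in runs (47 tiles) and -0.106 alone (569 tiles). The pooled difference turned to 0.0591 at a minimum of 3 reads (adjusted p = 0.025) and to 0.490 at 10 reads (adjusted p = 0.0417), both by the exact permutation test. Of 116 pairs of adjacent members, 89 had both late levels at 80% or more, 1 had both under 50%, and 2 had 1 tile at each extreme. Over all members, paired or not, 81.7% were at 80% or more in both late libraries. The pairs include neighbours inside the repeated arrays described next, whose tiles may share reads.

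The longest runs were repeated arrays. On chr4:190986001-191014000, 27 members held patterns repeated at a commonest distance of 3293 bases, and on chr10:135478001-135499000, 21 members did so at 3310 bases. DUX4, a transcription factor of the early embryo, is known to lie in each unit of a tandem repeat near the ends of the long arms of these chromosomes. The CpG distances of the RefSeq DUX4 promoter were found in 15 tiles of the files, all on chromosomes 4 and 10 and all members. Its 250 upstream bases (plus strand, RefSeq sequence of the GRCh38.p14 table) are shown with their 20 CpGs in capitals, because this sequence repeats along both runs.
DUX4: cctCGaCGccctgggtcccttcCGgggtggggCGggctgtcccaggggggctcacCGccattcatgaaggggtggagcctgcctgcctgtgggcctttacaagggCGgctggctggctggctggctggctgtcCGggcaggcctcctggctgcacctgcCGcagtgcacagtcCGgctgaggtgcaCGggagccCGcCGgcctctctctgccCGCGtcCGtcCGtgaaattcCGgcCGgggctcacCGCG

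In the chromosome 4 run, the 8 tiles with a DUX4 pattern had a mean of 85.5%, 86.0%, 85.0%, 84.9%, 84.5%, 84.5%, 83.6% and 82.8% at the 8 passages, with a SD between tiles of 1.68 at passage 28. The 6 tiles of the chromosome 10 run went from 85.3% to 82.8%, with a SD of 2.25. All tiles of both runs kept a mean late level of at least 79.1%, so these arrays lost under 3 points in the mean. Reads of near-identical copies cannot be told apart here, and each tile of a run may hold reads of others. The third run, 15 members on chr1:228743001-228782000 with patterns repeated at 2241 bases, went from 82.3% at passage 6 to 81.6% at passage 17, then to 77.8% and 77.2% in the late libraries.

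Promoters were rare among the members. RefSeq promoter sequences with at least 10 CpGs were placed in the files by their CpG distances, and 11630 of the 11670 placed at 1 position fell on the chromosome RefSeq gives (99.7%). A placed promoter was in 33 members (2.94%), against 44.0% of the other dense tiles. Promoters that matched at more than 1 position were left out, which lowers the count in tiles of repeated spacing such as those with a DUX4 pattern. These 33 members, with 37 genes, had single spacing in 21 cases, local in 11 and dispersed in 1. Their mean was 92.6% early and 80.4% late, 21 stayed at 80% or more in both late libraries, and 2 were under 50% in both. Of the 32 tested, 10 were called as losing methylation, 6 with single and 4 with local spacing, against 23.9% of all tiles tested. The genes are named because their promoters could be placed, after their values had been seen.

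The germline and piRNA list held 58 genes, of which 20 had a placed promoter in a measured tile and 7 in a dense tile. Of these 7, PIWIL1, MOV10L1, TDRD6 and TDRD9 were in members, against 37 of the 5256 genes placed in dense tiles (0.704%). The list was chosen with earlier results of these data known, so these shares are a description and were not tested. The other 3 started low, at an early mean of 6.42% for DPEP3, 0.397% for NANOS3 and 0% for CATSPERD. Imprinted genes (9 in dense tiles), ZNF genes (104), HOX genes (7) and clustered protocadherins (1) had none in members. At the share of 0.704% over all genes placed in dense tiles, lists of these sizes would hold few or none. The zeros are therefore not read as an absence.

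The 4 germline genes took different courses. The MOV10L1 tile, chr22:50528001-50529000, had 85.5%, 88.0%, 95.04%, 79.2%, 90.3% and 82.7% at passages 6 to 17 and 21.6% and 20.8% at passages 27 and 28, a fitted change of -70.5 points (quasi-binomial fit, adjusted p = 1.5e-06). The PIWIL1 tile, chr12:130822001-130823000, had 90.04%, 84.6%, 83.8%, 84.7%, 78.6%, 76.2%, 57.2% and 55.2%, a fitted change of -28.2 points (adjusted p = 0.00041). Both late libraries lay below every earlier one at both tiles. TDRD9, at chr14:104394001-104395000 on 13 CpGs, stayed at 97.9% at passage 6 and 95.9% at passage 28, with a lowest value of 93.6%. TDRD6, another Tudor-domain gene of germ cells, ran between 84.9 and 100% on 4 CpGs, and neither of these was called.

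The tile between DMGDH and BHMT2, both genes of choline and homocysteine metabolism, fell furthest of the promoter tiles: 93.1%, 93.5%, 92.2%, 92.8%, 91.1%, 80.3%, 16.5% and 12.7% (fitted change -81.2 points, quasi-binomial fit, adjusted p = 4.9e-07). PRSS41, which encodes a serine protease, went from 94.0% at passage 17 to 68.9% and 51.4%. RASL12, which encodes a small GTPase of the Ras family, went from 77.8% to 66.7% and 57.2%. Both were called as losing methylation. ANHX, a homeobox gene, was called as well, with 88.3% at passage 6, 96.3% at passage 17, then 89.0% and 82.3% in the late libraries, so its passage 27 value lies above its first. The other 4 called tiles hold CECR7 and genes known by LOC numbers, with fitted changes of -35.3 to -13.6 points.

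The promoter tiles that follow were not called as losing methylation. ZFP42, a gene known as a marker of pluripotent cells, had 97.4%, 95.2%, 98.5%, 89.3%, 96.9%, 100%, 95.9% and 97.1%. RBMXL2, an RNA-binding protein gene of male germ cells, stood at 96.7% at passage 6 and 96.4% at passage 28, and CCDC158 at 97.3% and 96.2%. FOXL3, a forkhead factor gene, had 2 member tiles, at 95.02% and 96.4% at passage 6 and 94.5% and 87.0% at passage 28. HSF5, a heat shock factor gene of male germ cells, had 88.4% at passage 6, 91.8% at passage 27 and 76.8% at passage 28. CHL1, a neural cell adhesion gene, had 86.7%, 94.4% and 92.7% at passages 6, 7 and 8. It stood at 90.7% and 84.6% at passages 27 and 28. CCDC158 had too few unmethylated reads for the test.

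**Figure D5:**
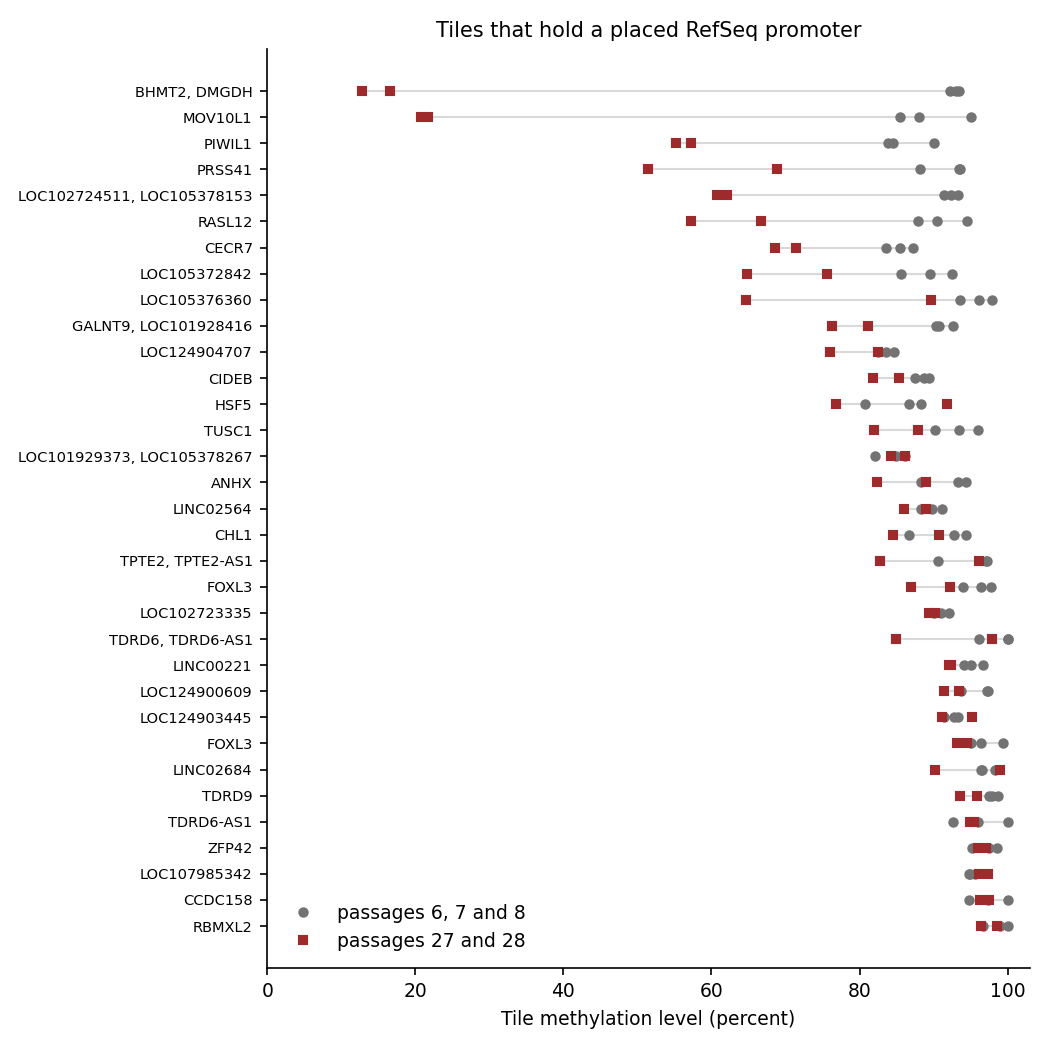
Methylation level (percent, horizontal axis) of the 33 member tiles that hold a placed RefSeq promoter, named by gene, with grey circles for passages 6, 7 and 8 and red squares for passages 27 and 28. The tiles of BHMT2 with DMGDH and of MOV10L1 lie at 21.6% or less late, while 21 tiles stay at 80% or more.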

How the data were processed

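The 8 deposited files, 1 per passage, list CpGs of hg19 (per the submitters' processing notes). Their deposited methylated and total reads were used. The score the authors deposited beside them is 1000 times the ratio of these reads, as every line was checked to show, and served no other purpose. How reads were aligned, called, filtered and cleared of duplicates is not given in the sources used here.

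Reads were summed per 1000-base tile over autosomal CpGs with 5 or more reads in every library, and means weight tiles equally. Slopes used passages 11 to 28, with exact permutation tests over the order of the 5 libraries. The fit per tile was a quasi-binomial regression with dispersions of at least 1 moderated by limma 3.58.1 (R 4.3.3), and p-values adjusted over all tested tiles. Tested on simulated data of 72839 tiles, it called 68% of falls of 40 points, 15% of falls of 20 points and 5 unchanged tiles. Only 100 tiles per size were changed there, falling evenly with passage, while 23.9% of the real tiles were called as losing methylation. The share recovered in the real data may therefore differ.

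Named tiles are the 8 lowest and 8 highest at passage 27 (ties by reads), the 3 longest runs, the 3 with most positions, the 3 largest falls from passage 17 to 27, the 3 largest differences of passages 27 and 28, and 3 on each side of the limit. Members and lists were chosen with earlier results of these data known. No hg19 genome or gene annotation was used, so promoters were placed by matching CpG distances, with at least 8 listed CpGs all on CpGs of the 300-base sequence. Alternatives varied the reads and CpG minimums, start level, tile offset, density, libraries, fit and spacing.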

Additional observations from a re-analysis of the deposited data

How the results depend on the processing

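The fall of the mean over members kept its direction and its side of the threshold under all 16 alternatives that left out no library. One of these adds passages 6 to 8, whose values chose the members, and is no independent support. The share kept at 80% or more was 84.4% at a minimum of 3 reads, 62.2% at 10 reads, 78.4% with at least 5 CpGs per tile, 73.8% and 93.3% with a start at 70% and 90%, and 91.2% on chromosome X (34 tiles). It was 51.6% with single spacing only, and 90.7% and 45.2% where kept meant 70% and 90%. The count of members called as losing methylation was 47 at 10 reads, 201 and 50 with 30 and 45 or more positions, 190 and 38 with a start at 70% and 90%, and 64 with limma on logit levels. Against tiles with 20 to 34 positions, the slope difference was 0.0741 at 10 reads, 0.0318 with a start at 90% and 1.63 on log2 of passage, none past the threshold, and it turned to -0.330 with single spacing only. Against tiles with 3 to 9 positions it was 0.0798 with 5 CpGs per tile, 0.0437 and 0.0862 with a start at 70% and 90%, and 1.21 on log2 of passage, none past the threshold, and it turned to -0.0629 at 10 reads. For chromosome ends it was -0.253 with a start at 90%, -4.85 on log2 of passage and -0.431 with single spacing only, none past the threshold, and it turned to 0.0811 at 10 reads. For runs it turned to 0.0591 at 3 reads and 0.490 at 10 reads. For density within the members it passed the threshold at 3 reads (0.0931) and with 5 CpGs per tile (0.0964). It also did over all 8 libraries (0.0434), a fit on values that chose the members and so no support. The slope of single minus dispersed spacing was -1.17 at 10 reads, -1.30 and -0.531 with a start at 70% and 90%, -0.803 over all 8 libraries and -0.766 with patterns of 10 distances. The cause of these changes was not tested, and the single spacing alternatives and the 10 distances were chosen after seeing the data.

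With each library left out in turn, the slope of the mean ran from -0.384 to -0.325, the count called from 102 to 149 and the share kept from 80.6 to 85.4%. The differences ran from 0.0950 to 0.164 (20 to 34 positions), 0.0780 to 0.125 (3 to 9 positions), -0.0285 to 0.0664 (runs), -0.435 to -0.355 (ends), 0.0198 to 0.0741 (density) and -1.10 to -0.901 (single minus dispersed). With 4 libraries the smallest p of 24 orders is 0.0417, so adjusted values seldom pass. No paired analysis was possible because 1 library was made per passage. Depth limits the tiles with 3 or 4 measured CpGs most.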
